A study of Mus musculus with 7 samples.

Results

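Memory-like CD8 T cells with Il2rb were followed across 7 droplet single-cell libraries of mouse liver tumour (hepatocellular carcinoma) tissue. They were chosen by the UMIs of marker genes (unique molecular identifiers, each standing for 1 captured RNA molecule) and not by clustering. Barcodes were kept when they held 500 UMIs and 200 genes or more, with less than 20% of UMIs from mitochondrial genes. Each cell then needed at least 1 UMI of Cd3d, Cd3e or Cd3g, at least 1 of Cd8b1 and at least 1 of Il2rb, and none of Pdcd1, Gzmk, Gzmb or Ncr1. Cells that met all of this are called cells with Il2rb below. The rule found 1832 of 62304 kept barcodes, 63 in the 3 controls (26, 17 and 20) and 1769 in the 4 treated samples (403, 356, 462 and 548). The same rule with no Il2rb UMI gave 539 CD8 T cells for comparison, and 891 further CD8 T cells had a UMI of Pdcd1, Gzmk or Gzmb and are called activated here. All of these genes chose the cells, so their levels are no finding.

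Every sample came from mice given plasmids for Nras and C-myc, a pair of oncogenes that drive liver tumours, by hydrodynamic tail vein injection 2 weeks before. This rapid injection of a large volume carries plasmids into hepatocytes. The 4 treated samples also carried IL-2/CD25, a fusion protein of interleukin 2 with CD25, its receptor's alpha chain. The 3 controls carried none. Strain, age, sex, and whether each sample was a separate animal are not given in the labels, so a p-value measures the spread between these samples only.

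Il2rb encodes CD122, the beta chain through which CD8 T cells read interleukin 2 and interleukin 15, and with the gamma chain it signals to STAT5. In mice, CD8 T cells with much CD122 include memory cells made by antigen and so-called virtual memory cells, which take on memory traits under cytokines without meeting their antigen. The transcription factor Eomes drives Il2rb and marks both. Such cells often keep Ccr7 and Lef1, genes of cells that recirculate through lymph nodes.

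The label was checked against genes outside the rule. For this check each cell was thinned to 2000 UMIs. Barcodes with fewer UMIs, with over 20000 or with Siglech, a dendritic cell gene, were left out. Detection of a gene at 2000 UMIs follows this filter here and below. It left 20, 14 and 17 control cells with Il2rb, so the largest control barcodes were not checked here. Cd8a, the partner of Cd8b1 and no gene of the rule, had a UMI in 45.0, 50 and 47.1% of these control cells and in 52.0 to 61.7% of treated cells. B cells of the same libraries, which should lack it, had 0 to 1.09% at that depth. The CD8 T cells without Il2rb had Cd8a in 31.3, 57.1 and 16.7% of 16, 7 and 12 control cells and in 55.6 to 66.7% of treated cells. By this marker the comparison cells of controls 1 and 3 were less surely CD8 T cells. Eomes had a UMI in 5.00, 14.3 and 11.8% of the control cells and in 26.7, 23.8, 25.0 and 21.7% of the treated cells, against 0% and 1.09 to 2.37% of B cells. In both groups most cells thus had no Eomes UMI at this depth. Cells without Il2rb had one in 6.25, 14.3 and 0% of control and in 5.56 to 12.3% of treated cells. In the controls Eomes detection thus overlapped between cells with and without Il2rb. Cd4 had a UMI in none of the control cells and at most 0.901% of the treated cells, and Trdc, of gamma delta T cells, in none and at most 2.70%, with at most 1.53% of B cells.

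A few very large barcodes carried most control RNA. Of the 63 control cells, 9 had over 20000 UMIs, and these 9 held 84.0, 64.1 and 61.4% of the summed UMIs of such cells in the 3 controls. At least 3 UMIs of the keratins Krt8 and Krt18, genes of tumour and bile duct epithelium, were found in 8 of them, and Cd8a in 3. Of the smaller control barcodes 2 of 21, 1 of 15 and 9 of 18 also had that many keratin UMIs, and they were kept. Among the 91 control cells without Il2rb, 46 were that large and held 90.8, 91.1 and 98.1% of the UMIs. Treated cells with Il2rb had 2 such barcodes, with 1.91% of the UMIs of treated sample 1, and treated cells without Il2rb had none. Siglech, a gene of plasmacytoid dendritic cells, had a UMI in 55 treated cells with Il2rb and in 47 without. Gene results are therefore given for sums over all barcodes (full sums), for sums without barcodes over 20000 UMIs or with Siglech (trimmed sums), and for those trimmed cells at 2000 UMIs each (equal-depth sums). The trimmed sums rest on 21, 15 and 17 control and 394, 340, 448 and 530 treated cells.

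**Figure D1:**
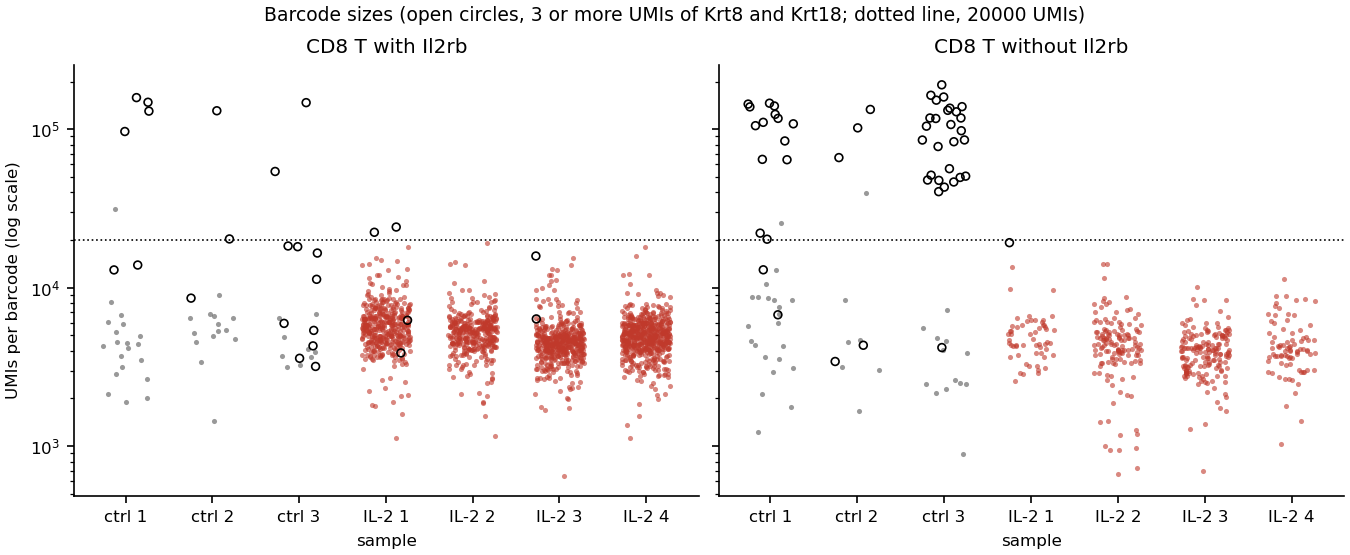
UMIs per barcode on a log scale for CD8 T cells with Il2rb (left) and without (right) in each sample (ctrl, control; IL-2, IL-2/CD25 plasmid). Each point is 1 barcode, open circles have at least 3 UMIs of Krt8 and Krt18, and the dotted line marks 20000 UMIs. Control barcodes above the line are 9 with Il2rb and 46 without, against 2 and 0 in the treated samples.

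Libraries held 7263 to 10637 barcodes with 37653600 to 181755269 UMIs in all, and the median kept barcode had 6253.5, 6301 and 8724 UMIs in the controls, against 3215 to 4477.5 with IL-2/CD25. Cells with Il2rb were closer in depth, with medians of 4757.5, 5863 and 5142 UMIs for the controls, against 5681, 5283.5, 4483 and 4900 with IL-2/CD25. Any pair of libraries shared 14 to 37 barcode sequences. Free RNA, estimated from markers of other cells, could account for 6.17 to 42.1% of the control and 9.39 to 22.1% of the treated UMIs of these cells.

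The first question was how many of these cells the liver held with and without the IL-2/CD25 plasmid. They made up 0.273, 0.234 and 0.231% of kept barcodes in the controls and 5.56, 4.05, 4.43 and 5.28% in the treated samples. The groups lay far apart, at 0.246% ± 0.0235 (SD, n = 3) and 4.83% ± 0.709 (SD, n = 4), a 19.6-fold higher share with the plasmid. An exact two-sided permutation test over samples gave p = 0.0286, the smallest that 35 splits allow, and an adjusted p of 0.0286 over 3 shares. With the rule applied to cells thinned to 2000 UMIs, the shares were 0.278% ± 0.0826 and 3.27% ± 0.690, an 11.8-fold difference. Among T cells alone their share was 3.31% ± 1.39 against 16.5% ± 2.04.

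The CD8 T cell pool was divided differently as well. Cells with Il2rb and without Pdcd1, Gzmk and Gzmb were 10.2, 30.4 and 9.35% of CD8 T cells in the controls and 68.5, 60.1, 61.9 and 67.6% in the treated samples (exact permutation p = 0.0286, adjusted p = 0.0286). Control 2 stood above the other controls but below every treated sample. With the rule applied to cells thinned to 2000 UMIs, the shares were 25.0% ± 15.6 and 53.0% ± 7.53. Activated cells, which the rule leaves out, had an Il2rb UMI in 86.4, 88.9 and 77.8% of control and in 84.4 to 92.2% of treated cells. The share above therefore counts cells without Pdcd1, Gzmk and Gzmb, and is not the share of all CD8 T cells with Il2rb. Activated cells made up 64.9% ± 14.5 of control and 18.9% ± 3.54 of treated CD8 T cells. As a share of kept barcodes, activated cells were 1.38% ± 0.883 in the controls and 1.43% ± 0.375 in the treated samples, cells without Il2rb were 0.346% ± 0.161 and 1.20% ± 0.467, and all CD8 T cells were 1.97% ± 1.05 and 7.45% ± 0.626. These further shares were not tested.

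How many of the CD8 T cells without Pdcd1, Gzmk and Gzmb carried Il2rb is given as a description, since the rule uses that gene, and it depended on depth and on the large barcodes. By all UMIs, 40.6, 58.6 and 32.8% of such control cells had an Il2rb UMI, against 87.6, 71.8, 73.3 and 86.8% of treated cells. Trimmed, the shares were 58.6% ± 5.92 and 81.0% ± 8.36, a difference of 22.4 instead of 35.9 percentage points. At 2000 UMIs per cell they were 44.4, 47.6 and 44.8% against 66.1, 51.0, 56.4 and 69.9%. When the rule itself was applied anew to the thinned cells, the difference was 4.02 points, and 13, 4 and 5 of the 25, 12 and 16 control cells it then took were activated by all UMIs. With Cd8a required as well, the difference was 13.7 points. At 2000 UMIs, B cells had an Il2rb UMI in 0.971, 1.49 and 1.82% of control and in 5.26, 7.09, 7.66 and 12.4% of treated cells. This background of Il2rb, from free RNA or another source, was thus higher in the treated samples. Its source, and its part in this difference and in the shares above, were not tested.

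**Figure D2:**
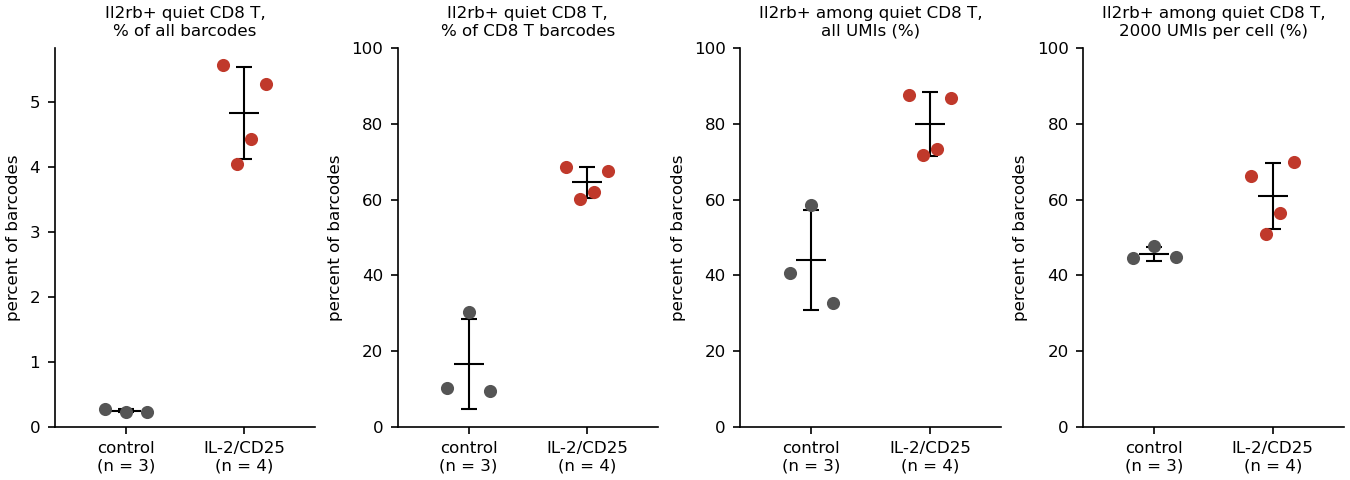
Shares of barcodes in percent for 3 control (grey) and 4 IL-2/CD25 samples (red): CD8 T cells with Il2rb and without Pdcd1, Gzmk and Gzmb ("quiet") among all kept barcodes, the same among CD8 T cells, and those with Il2rb among quiet CD8 T cells at full depth and at 2000 UMIs per cell. Points are samples and bars the mean and SD. The groups do not overlap in any panel, and lie closest in the last (45.6% ± 1.73 and 60.9% ± 8.68).

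Cells with Il2rb were next set against CD8 T cells without it in the same sample. They carried more RNA of memory regulators, killer-cell receptors and granule proteins, and less of several genes of naive cells. Summed UMIs were fitted with edgeR's quasi-likelihood test with the sample as a block. In full sums, 82 of 7192 genes passed an adjusted p of 0.05 (1.14%), 54 higher (0.751%) and 28 lower (0.389%). Trimmed sums of 6 samples called 221 of 5313 (4.16%), 132 higher (2.48%) and 89 lower (1.68%). Equal-depth sums called 178 of 2882 (6.18%), 89 each way (3.09% and 3.09%). Full sums of the 4 treated samples alone called 884 of 9066 (9.75%), 400 higher (4.41%) and 484 lower (5.34%). Control 2, with 8 trimmed cells without Il2rb, did not enter the trimmed and equal-depth fits. Levels below are CPM (counts scaled to a common total) in trimmed sums, and each log2 difference comes from edgeR with Benjamini-Hochberg adjustment over all genes tested.

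Of 23 tested virtual memory and memory CD8 genes, trimmed sums called 17 higher and 2 lower, beside 2.48 and 1.68% of all genes. Full sums called 9 of 23 higher and 0 lower, beside 0.751 and 0.389%, and equal-depth sums 14 of 19 higher and 2 lower, beside 3.09% each way.

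Eomes (ENSMUSG00000032446) had 37.1, 130 and 63.6 CPM in control and 176, 157, 182 and 159 CPM in treated cells with Il2rb. Without Il2rb it had 19.9, 211 and 22.6 CPM and 60.3, 65.1, 66.4 and 108 CPM. It was higher with Il2rb in 6 of 7 samples, control 2 going the other way. The log2 difference was 1.18 ± 0.15 (SE, edgeR adjusted p = 3.39e-05) in trimmed sums, 1.46 in full and 1.27 in equal-depth sums. Of these fits, only that of the full sums included control 2. Tbx21, the related factor T-bet, was also higher (log2 1.54 ± 0.26, edgeR adjusted p = 0.000722), and was too low for the equal-depth fit. In activated CD8 T cells Eomes was found in 28.9, 21.3, 20.4 and 25.3% of treated and in 16.8, 30 and 16.4% of control cells at 2000 UMIs, which overlaps the treated cells with Il2rb and was not tested.

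Some receptors that memory CD8 T cells use were higher as well. Cxcr3, a receptor for interferon-induced chemokines, had 102, 142 and 136 CPM and 91.3, 79.6, 87.9 and 103 CPM with Il2rb, against 49.7, 0 and 90.6 CPM and 24.8, 19.1, 31.5 and 40.8 CPM without. It was higher in 7 of 7 samples (log2 1.53 ± 0.18, edgeR adjusted p = 1.09e-05). Il18r1 and Il18rap, both chains of the interleukin 18 receptor, were higher by log2 0.92 ± 0.12 and 1.00 ± 0.14 (edgeR adjusted p = 5.34e-05 and 9.16e-05). Of 19 tested cytokine receptor and JAK-STAT genes, 5 were higher and 3 lower in trimmed sums, beside 2.48 and 1.68% of all genes. The other higher ones were Ifngr1, the interferon gamma receptor (log2 0.51, not called without any 1 treated sample), Il4ra, the interleukin 4 receptor (log2 0.46), and Stat4, which carries interleukin 12 signals (log2 0.57). The lower ones were Il6ra and Il6st, both chains of the interleukin 6 receptor, and Stat5b (log2 -0.50).

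Several killer-cell genes outside the rule were higher with Il2rb. Gzmm (ENSMUSG00000054206), granzyme M, had 55.7, 0 and 36.3 CPM and 237, 163, 135 and 236 CPM with Il2rb, against no UMI in any control and 21.3, 36.4, 26.2 and 66.8 CPM without. Its log2 difference was 2.34 ± 0.19 in trimmed, 2.72 in full and 2.27 in equal-depth sums (edgeR adjusted p = 4.57e-08, 0.000245 and 1.69e-10). At 2000 UMIs per cell it was found in 33.2, 22.0, 18.2 and 30.7% of treated cells with Il2rb, in 8.99 to 19.9% of treated activated cells and in 0.179 to 0.263% of treated B cells. Klrc2, an activating receptor of the NKG2 family, had 74.3, 11.8 and 45.4 CPM and 211, 160, 141 and 201 CPM with Il2rb, against 39.8, 0 and 90.6 CPM and 42.6, 13.4, 52.4 and 81.7 CPM without (log2 1.81 ± 0.23, edgeR adjusted p = 2.69e-05). Control 3 went the other way for Klrc2. Of 11 tested NK receptor genes 7 were higher in trimmed sums and 0 lower, beside 2.48 and 1.68% of all genes, among them Klrc1 (log2 1.61), Klre1 (log2 1.40), Klra7 of the Ly49 family (log2 2.29) and Klrk1, the gene for NKG2D (log2 0.93). Of 16 tested cytotoxic and effector genes 9 were higher and 0 lower, including the chemokine Ccl5 (log2 1.37), the granule membrane gene Nkg7 (log2 0.61, not called without treated sample 2, 3 or 4) and Hopx, a cofactor without DNA binding (log2 1.03). Ccl5 was also found in 50.4 to 75.4% of treated B cells at 2000 UMIs, against 83.1 to 95.2% of treated cells with Il2rb.

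Ctla2a, a cathepsin inhibitor of activated T cells, was higher as well, with 381, 484 and 599 CPM and 586, 402, 400 and 649 CPM with Il2rb, against 129, 90.3 and 158 CPM and 124, 128, 145 and 200 CPM without (log2 1.70 ± 0.13, edgeR adjusted p = 1.01e-08). The groups of cells did not overlap, and it was higher with Il2rb in 7 of 7 samples. Further genes called in both full and trimmed sums were Samd3 (log2 1.73 trimmed), Serpinb9, which protects killer cells from their own granzyme B (log2 1.28), Itm2a (log2 1.17), Gimap4 (log2 0.61, not called without treated sample 1, 2 or 4) and the pseudogene Klra13-ps (log2 2.13). Klr genes are a family of close copies, so reads shared between them make single members uncertain.

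Several genes of naive and central memory T cells were lower with Il2rb, in numbers that depended on the fit. Trimmed sums called 6 of 18 lower and 0 higher, namely Actn1, Bach2, Ccr7, Dapl1, Igfbp4 and Lef1, beside 1.68% of all genes, and the median of the list was log2 -0.28 against -0.01 over all genes. Equal-depth sums called 10 of 16 lower, beside 3.09%. In full sums only Igfbp4 was called, lower, and the median of the list was log2 0.38. Full sums of the treated samples alone called 6 of 18 lower and 2 higher, Bcl2 and Cd27. Igfbp4, a binder of insulin-like growth factors, had 9.28, 23.6 and 54.5 CPM and 7.72, 31.4, 38.6 and 11.6 CPM with Il2rb, against 29.8, 120 and 45.3 CPM and 174, 115, 140 and 115 CPM without (trimmed log2 -2.55 ± 0.29, edgeR adjusted p = 5.89e-06).

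Lef1, a transcription factor of naive T cells, had 443, 464, 479 and 405 CPM with Il2rb and 713, 896, 720 and 694 CPM without in the treated samples, and 297, 236 and 209 against 239, 331 and 475 CPM in the controls. All treated samples showed less Lef1 with Il2rb, and control 1 showed more (log2 -0.72 ± 0.12, edgeR adjusted p = 0.000681). Ccr7, the lymph node homing receptor, had 346, 300, 435 and 197 CPM against 582, 593, 662 and 412 CPM in the treated samples (log2 -0.86 ± 0.16 over 6 samples, edgeR adjusted p = 0.00199), a call lost without treated sample 2 (adjusted p = 0.0823). Tcf7 (log2 -0.29 ± 0.14, edgeR adjusted p = 0.336) and Il7r (log2 -0.15 ± 0.11, edgeR adjusted p = 0.615) were not called in trimmed sums, but equal-depth sums called both lower (log2 -0.36 and -0.23, edgeR adjusted p = 0.00382 and 0.0297).

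The other lists are read beside 2.48% of all genes called higher and 1.68% called lower in trimmed sums. IL-2 and STAT5 response genes had 3 of 14 higher and 0 lower in trimmed sums, against 0 of 16 in full sums. The higher ones were the phosphatase Dusp5 (log2 0.90), the kinase Pim1 (log2 0.55, not called without treated sample 1 or 2) and the transcription factor Myc (log2 0.68). Myc was also on the list of tumour markers, as C-myc was an injected oncogene. Whether its UMIs came from these cells or from tumour RNA was not tested. Of 16 migration and residency genes 4 were higher (Cxcr3, Itgb1 and Rgs1 among them) and 3 lower (Ccr7, Itga4, whose call was lost without any 1 treated sample, and Itgb7). Equal-depth sums called 5 of 15 each way, and full sums 1 of 17 higher and 0 lower. Of 7 inhibitory receptor and exhaustion genes 3 were higher, Cd160, Ikzf2 and Nr4a2. Interferon response genes (0 of 10) and proliferation genes (0 of 7) had no call by edgeR in trimmed sums. Cd44, the classical memory surface gene, was higher in trimmed sums over 6 samples (log2 0.99, edgeR adjusted p = 0.000585), but not in full sums (log2 -0.05) or in the treated samples alone (log2 0.24, edgeR adjusted p = 0.266).

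Of the 12 genes named as lower in full sums, Igfbp4, Tsc22d1 and Timp2 were also called in trimmed sums. Ly6d, Nucb2, Tcf4, Cyb561a3 and Msmo1 were then too low to test, and Ctsl, Hmgcs1, Rpgrip1 and Clic4 were not called. Dendritic cell markers made up 0.0738 to 0.228% of the UMIs of treated cells without Il2rb and 0.0134 to 0.0302% of those with it. After trimming they were 0.0245 to 0.0253% without Il2rb.

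**Figure D3:**
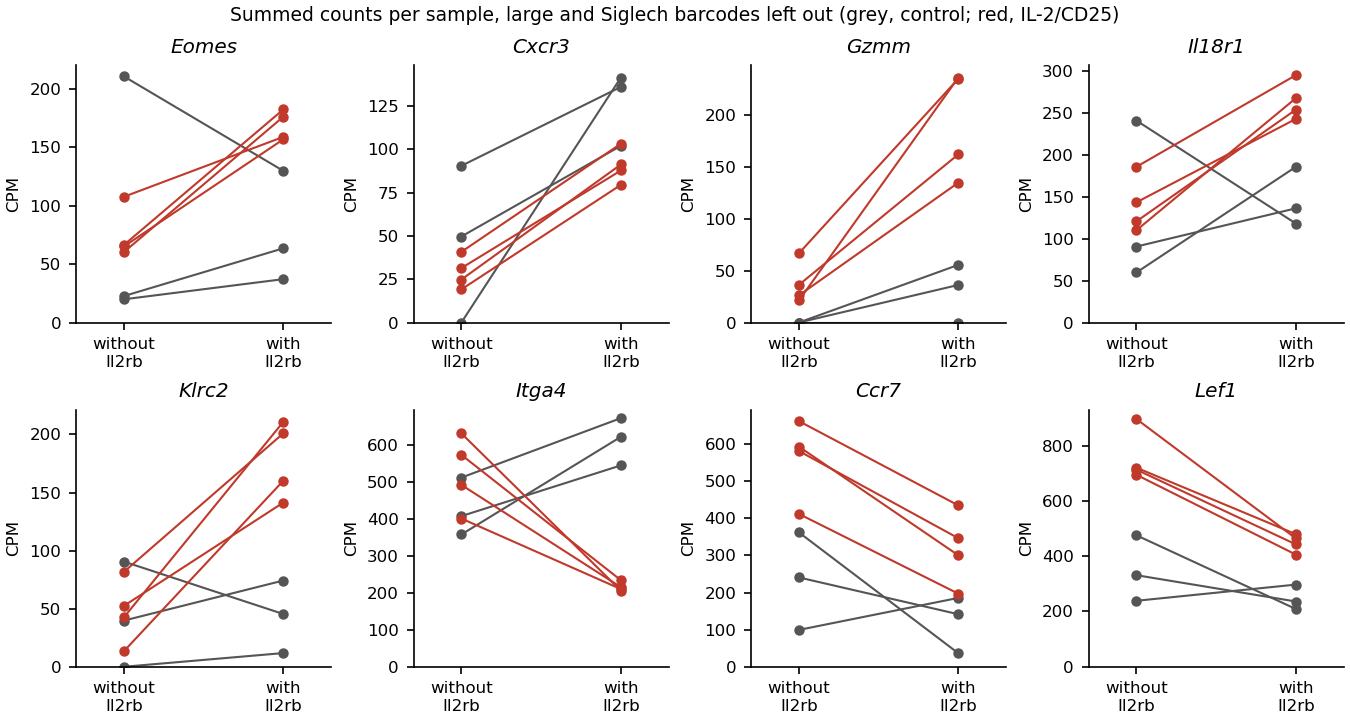
CPM of 8 genes in CD8 T cells without and with Il2rb, from trimmed sums. Each line joins both kinds of cell of 1 sample (grey, control; red, IL-2/CD25). In the red lines Eomes, Cxcr3, Gzmm, Il18r1 and Klrc2 are higher with Il2rb and Itga4, Ccr7 and Lef1 lower, and for Itga4 the grey lines run the other way.

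The second question was how cells with Il2rb differed between treated and control livers. With the IL-2/CD25 plasmid they carried more RNA of genes of quiescent, recirculating T cells (Satb1, S1pr1 and Lef1) and of activation-induced genes (Cd69, Nr4a2 and Junb). They also carried more Gzmm and Klrc2, and in trimmed sums less of the integrin genes Itga4 and Itgb1. Full sums called 6007 of 10542 genes (57.0%), 2937 higher (27.9%) and 3070 lower (29.1%). Trimmed sums called 1002 of 9891 (10.1%), 533 higher (5.39%) and 469 lower (4.74%). Equal-depth sums called 452 of 7347 (6.15%), 336 higher (4.57%) and 116 lower (1.58%). All 3 fits called 240 genes higher (3.27%) and 100 lower (1.36%). The median log2 difference over all genes was 0.06 in full, 0.17 in trimmed and 0.36 in equal-depth sums. In these counts fewer cells that express a gene and less of its RNA per cell cannot be told apart. The tests reuse the sums that entered the comparison above.

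Of 18 naive and central memory genes, 11 were higher and 0 lower in trimmed sums, beside 5.39 and 4.74% of all genes, with a median of log2 0.92. Full sums called 15 higher and 1 lower, beside 27.9 and 29.1%, and equal-depth sums 11 higher and 0 lower, beside 4.57 and 1.58%. These shares of all genes are the background for the further lists of this comparison. Satb1, a chromatin organiser of T cells, had 344, 555 and 209 CPM in the controls and 1192, 1316, 1366 and 1147 CPM in the treated samples. The groups did not overlap, and the log2 difference was 1.92 ± 0.18 (edgeR adjusted p = 8.67e-07). S1pr1, the receptor by which T cells leave tissues, had 167, 118 and 72.6 CPM against 426, 503, 552 and 387 CPM (log2 2.07 ± 0.24, edgeR adjusted p = 8.19e-06).

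Ccr7 had 186, 142 and 36.3 CPM in the controls and 346, 300, 435 and 197 CPM in the treated samples (log2 1.52 ± 0.38, edgeR adjusted p = 0.0119). The groups did not overlap, but control 3 was lowest and the call was lost without it (adjusted p = 0.163). At 2000 UMIs per cell, Ccr7 was found in 25.0, 28.6 and 11.8% of control and in 37.3, 40.2, 44.6 and 26.1% of treated cells with Il2rb, which overlapped. B cells use Ccr7 themselves and gave no background for it.

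Lef1 and Tcf7, paired factors of naive and memory T cells, were each higher by log2 0.96 (SE 0.17 and 0.15; edgeR adjusted p = 0.000715 and 0.000219), and Klf2, which drives S1pr1, by log2 0.98 ± 0.16 (edgeR adjusted p = 0.000296). The costimulatory receptor Cd27 (log2 1.05) and the quiescence factor Foxp1 (log2 1.29) were higher too. Il7r, the survival receptor for interleukin 7, had 1226, 1263 and 608 CPM against 1288, 1240, 1307 and 1138 CPM, with overlapping groups (trimmed log2 0.39 ± 0.16, edgeR adjusted p = 0.132), while full and equal-depth sums called it higher (log2 1.97 and 0.57, edgeR adjusted p = 1.52e-05 and 0.00742). Cd28, Foxo1 and Cdkn1b, chosen after their values were seen, were called higher in all 3 fits (trimmed log2 1.74, 0.93 and 1.12). They encode a costimulatory receptor, a driver of Il7r, and the cell cycle inhibitor p27, and the trimmed call of Foxo1 was lost without control 3.

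Gzmm had 55.7, 0 and 36.3 CPM in the controls and 237, 163, 135 and 236 CPM in the treated samples, without overlap (log2 2.66 ± 0.52, edgeR adjusted p = 0.00177). The control values rest on 10 UMIs. Klrc2, from 14 control UMIs, was higher by log2 2.06 ± 0.40 (edgeR adjusted p = 0.00155). Of 18 tested NK receptor genes in trimmed sums, 2 were higher, Klrc2 and Klre1 (the latter in 3 of 7 fits that left out 1 sample), and 2 lower, the adaptor genes Fcer1g and Tyrobp, which myeloid cells also express. Full sums called 11 of 18 higher and 1 lower, and equal-depth sums 2 of 15 each way. Of 22 cytotoxic and effector genes 5 were higher and 2 lower in trimmed sums, beside 5.39 and 4.74% of all genes. Full sums called 14 of 23 higher and 1 lower, beside 27.9 and 29.1%, and equal-depth sums 3 of 19 higher and 0 lower. Ccl5 had 3946, 3988 and 5466 CPM against 5327, 4068, 3647 and 5542 CPM, with wide overlap (log2 0.16 ± 0.15, edgeR adjusted p = 0.572). Nkg7 (log2 0.14 ± 0.13) and Cxcr3 (log2 -0.36 ± 0.25) were not called in trimmed or equal-depth sums either.

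Gzma, another granule protease, had no UMI in the trimmed controls and a mean of 178 ± 71.2 CPM (SD, n = 4) in the treated samples. It was found in 24.7, 18.8, 19.6 and 45.9% of treated cells with Il2rb at 2000 UMIs, and in 22.4, 23.2, 26.6 and 46.2% of B cells, which should lack it. The Gzma UMIs of these cells were thus at the level of free RNA and are not read as expression.

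Eomes was higher in treated cells in trimmed sums, with 37.1, 130 and 63.6 CPM against 176, 157, 182 and 159 CPM (log2 1.31 ± 0.29, edgeR adjusted p = 0.00437). It was not called in equal-depth sums (log2 1.23 ± 0.43, edgeR adjusted p = 0.0622) or without control 1, and its control values rest on 22 UMIs. Of 25 virtual memory and memory CD8 genes 8 were higher and 5 lower in trimmed sums (median log2 0.14), beside 5.39 and 4.74% of all genes. Full sums called 19 higher and 4 lower, beside 27.9 and 29.1%, and equal-depth sums 6 higher and 2 lower (median log2 0.20), beside 4.57 and 1.58%. Il18r1 was among the higher ones (log2 0.94 ± 0.21, edgeR adjusted p = 0.00572). Ly6a, the surface gene Sca-1, was among the lower ones, with 102, 106 and 136 CPM against 28.3, 40.9, 43.9 and 27.8 CPM (log2 -1.63 ± 0.32, edgeR adjusted p = 0.00211). Equal-depth sums did not call Ly6a (adjusted p = 0.264), nor did trimmed sums without control 3.

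Of 22 IL-2 and STAT5 response genes, trimmed sums called 1 higher, Dusp5, and 2 lower, the STAT5 inhibitor Cish and the cell cycle kinase Cdk6, beside 5.39 and 4.74% of all genes. Full sums called 10 higher and 4 lower (median log2 0.61), beside 27.9 and 29.1%, and equal-depth sums 2 of 16 higher and 0 lower, beside 4.57 and 1.58%. Dusp5 had 55.7, 35.4 and 99.9 CPM in the controls and 311, 215, 317 and 126 CPM in the treated samples (log2 1.98 ± 0.50, edgeR adjusted p = 0.0134), without overlap. That call was lost when any 1 control was left out, and full sums did not make it (log2 0.50, edgeR adjusted p = 0.187). Cish had 74.3, 47.2 and 109 CPM against 21.4, 20.7, 19.3 and 17.7 CPM (log2 -1.89 ± 0.36, edgeR adjusted p = 0.00155), and neither equal-depth sums (adjusted p = 0.264) nor trimmed sums without control 3 called it. Il2ra, the gene for CD25 itself, had no UMI in the trimmed controls and 10.7, 15.1, 13.0 and 8.64 CPM in the treated samples. Jak1, the kinase bound to Il2rb, was higher in all 3 fits, with 492, 602 and 508 CPM against 1107, 1004, 1044 and 1078 CPM (trimmed log2 1.10 ± 0.13, edgeR adjusted p = 9.51e-06).

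Of 18 activation-induced genes 4 were higher and 2 lower in trimmed sums, beside 5.39 and 4.74% of all genes. Full sums called 9 higher and 1 lower, and equal-depth sums 4 of 13 higher and 0 lower. Cd69, which holds T cells in tissue, had 381, 637 and 309 CPM against 1213, 857, 907 and 871 CPM (log2 1.27 ± 0.20, edgeR adjusted p = 0.000184). Nr4a2, a nuclear receptor induced by stimulation, had 18.6, 59.0 and 36.3 CPM against 206, 163, 210.5 and 124 CPM (log2 2.37 ± 0.44, edgeR adjusted p = 0.00113). Junb, a part of AP-1, was higher by log2 1.41 ± 0.28. Of 23 interferon response genes trimmed sums called 0 higher and 1 lower, Ifi27l2a (log2 -1.96), while full sums called 9 higher and 2 lower.

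The integrin genes Itga4 and Itgb1, which pair as VLA-4, were lower. Itga4 (ENSMUSG00000027009) had 622, 673 and 545 CPM in control and 206, 215, 234 and 210 CPM in treated cells with Il2rb. Both groups were tight and did not overlap (log2 -1.39 ± 0.13, edgeR adjusted p = 9.49e-07), and the call held in 7 of 7 fits that left out 1 sample. At 2000 UMIs it was found in 70.0, 64.3 and 58.8% of control and in 23.1, 23.8, 30.6 and 26.1% of treated cells. B cells, which use Itga4 themselves, had 35.5 to 58.9%. Full sums, in which the large barcodes held most control UMIs, gave 110, 267 and 183 CPM in the controls and no call (log2 0.25 ± 0.23, edgeR adjusted p = 0.363). Itgb1 had 334, 413 and 581 CPM against 179, 136, 160 and 184 CPM (log2 -1.32 ± 0.19, edgeR adjusted p = 0.000111) and was called in all 3 fits.

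Some proliferation genes were lower. Trimmed sums called 5 of 16 lower and 0 higher, beside 4.74 and 5.39% of all genes, and equal-depth sums 3 of 10 (Mki67, Pclaf and Stmn1), beside 1.58%. Full sums called 17 of 21 lower and 0 higher, beside 29.1 and 27.9%. Mki67, a marker of dividing cells, had 18.6, 177 and 90.8 CPM against 10.3, 4.48, 21.7 and 12.4 CPM (log2 -2.75 ± 0.58, edgeR adjusted p = 0.00365). Control 1 lay within the range of the treated samples, and the call was lost without control 2 or control 3. At 2000 UMIs, Mki67 was found in 5.00, 21.4 and 5.88% of control and in 1.79 to 2.70% of treated cells, with 2.99 to 9.09% of control and 0.526 to 1.09% of treated B cells.

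A last group of lower genes, named after their values were seen, holds the calcium-binding genes S100a4 and S100a6, the lectin Lgals1, the filament gene Vim and the glycolytic genes Ldha and Pgk1. S100a6 had 2386, 1074 and 2706 CPM against 255, 183, 169 and 317 CPM (log2 -3.07 ± 0.25, edgeR adjusted p = 1.66e-07), and Vim had 808, 472 and 872 CPM against 181, 139.5, 160 and 198 CPM (log2 -2.0 ± 0.19, edgeR adjusted p = 8.67e-07). All 6 were called in all 3 fits. Genes of other cells were lower beside them. In trimmed sums the neutrophil gene S100a8 had 2293, 531 and 608 CPM against 101, 64.4, 424 and 109 CPM, the myeloid gene Lyz2 had 1671, 153 and 935 CPM against 80.2, 20.2, 47.8 and 63.5 CPM, and Krt8 had 55.7, 35.4 and 145 CPM against 9.01, 2.80, 6.76 and 0.376 CPM. Over the whole lists, trimmed control cells had 0.0236 to 0.199% of their UMIs in myeloid markers and 0.0366 to 0.0944% in tumour markers, against 0.00398 to 0.0168% and 0.0152 to 0.0186% in treated cells. Their part in the lower genes was not tested.

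**Figure D4:**
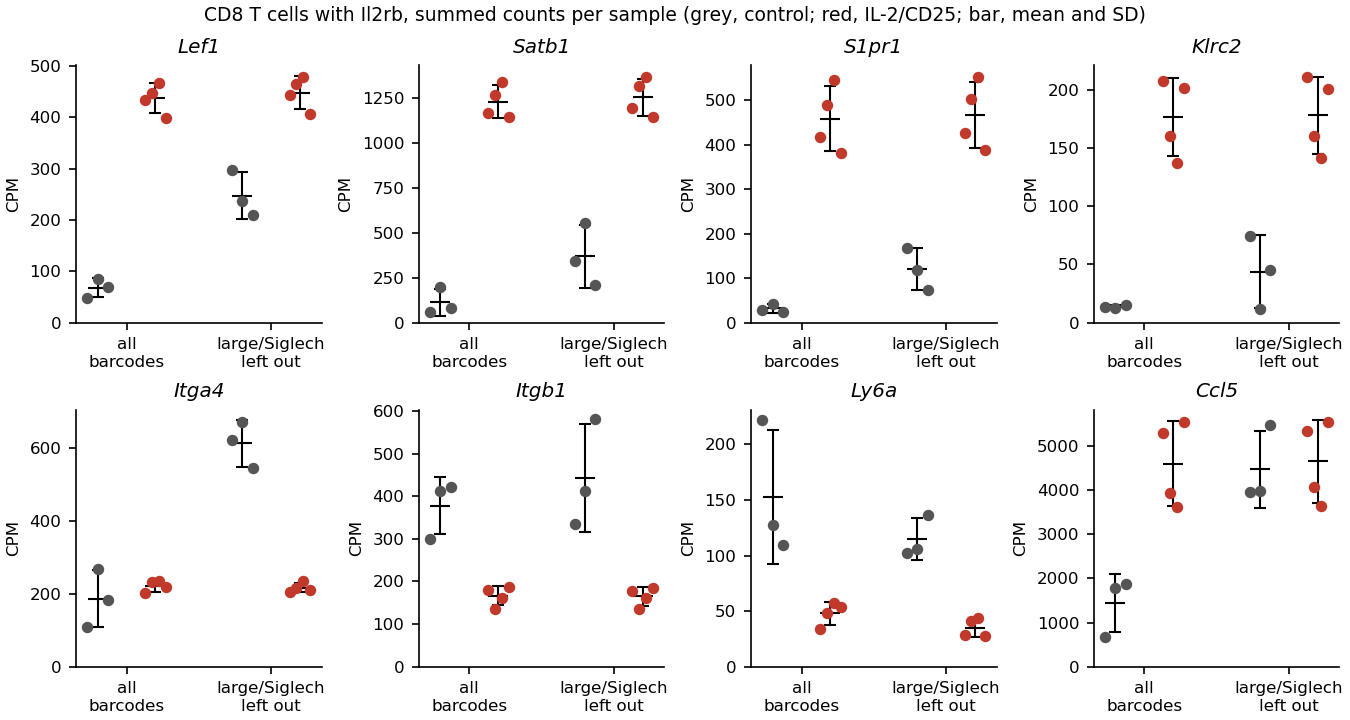
CPM of 8 genes in CD8 T cells with Il2rb for 3 control (grey) and 4 IL-2/CD25 samples (red), in sums over all barcodes and in trimmed sums. Points are samples and bars the mean and SD. Lef1, Satb1, S1pr1 and Klrc2 are higher with the plasmid in both, Itgb1 and Ly6a are lower, and Itga4 and Ccl5 change with the trimming.

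The genes with the highest fold in full sums were named by rule. Higher were Slc15a2, Cxcr6, Mylip, Klra13-ps, Gzmm, Rapgef4, Ifitm10, Pou6f1, Maml2, Nr4a2, Gzma and Vipr1. Mylip, Klra13-ps, Gzmm, Ifitm10, Maml2 and Nr4a2 were called in all 3 fits as well, with trimmed log2 differences of 2.93, 4.97, 2.66, 2.63, 3.27 and 2.37, and so was Gzma, read above as free RNA. Cxcr6, a residency receptor, was called in trimmed sums (log2 3.50), a call lost when any 1 control was left out, and not in equal-depth sums (log2 2.20, edgeR adjusted p = 0.0814). Lower were Aqp8, Prkg2, Crct1, R3hdml, Sprr1a, Bco1, Cda, Tmem252, Wincr1, Ptges, Cldn6 and Acan. Of these, only Sprr1a could still be tested in trimmed sums (log2 -6.98), so the other 11 rest on the large barcodes.

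The third test asked whether the difference with Il2rb itself changed between the groups. Full sums called 194 of 9109 genes (2.13%), 10 with a higher difference in treated samples (0.11%) and 184 with a lower one (2.02%), led by Lat, Trbc2, Slamf6, Tcf7, Themis and Lck, T cell genes whose log2 differences of differences ran from -3.40 to -2.22. None of these 6 was called in trimmed or equal-depth sums, which called 3 of 7120 (0.0421%, with 0.0281% higher and 0.014% lower) and 4 of 4540 (0.0881%, with 0.0441% each way). Itga4, chosen after its values were seen, was called in all 3 (trimmed -1.98 ± 0.29, edgeR adjusted p = 0.00110; equal-depth -1.66 ± 0.37, edgeR adjusted p = 0.0277). In trimmed sums, control cells with Il2rb had more Itga4 than those without, at 622, 673 and 545 against 358, 512 and 408 CPM. Treated cells with Il2rb had less, at 206, 215, 234 and 210 against 631, 492, 573 and 401 CPM. At 2000 UMIs per cell, Itga4 was found in 70.0, 64.3 and 58.8% of control cells with Il2rb. Without Il2rb it was found in 37.5, 85.7 and 58.3% of 16, 7 and 12 control cells. By detection control 2 thus went the other way and control 3 was nearly level. Treated cells had it in 23.1 to 30.6% with Il2rb and in 47.0 to 63.0% without. Control 2 did not enter the trimmed and equal-depth fits of the difference of differences. Most other genes named above were not called for such a difference, which does not show that it was equal in both groups.

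**Figure D5:**
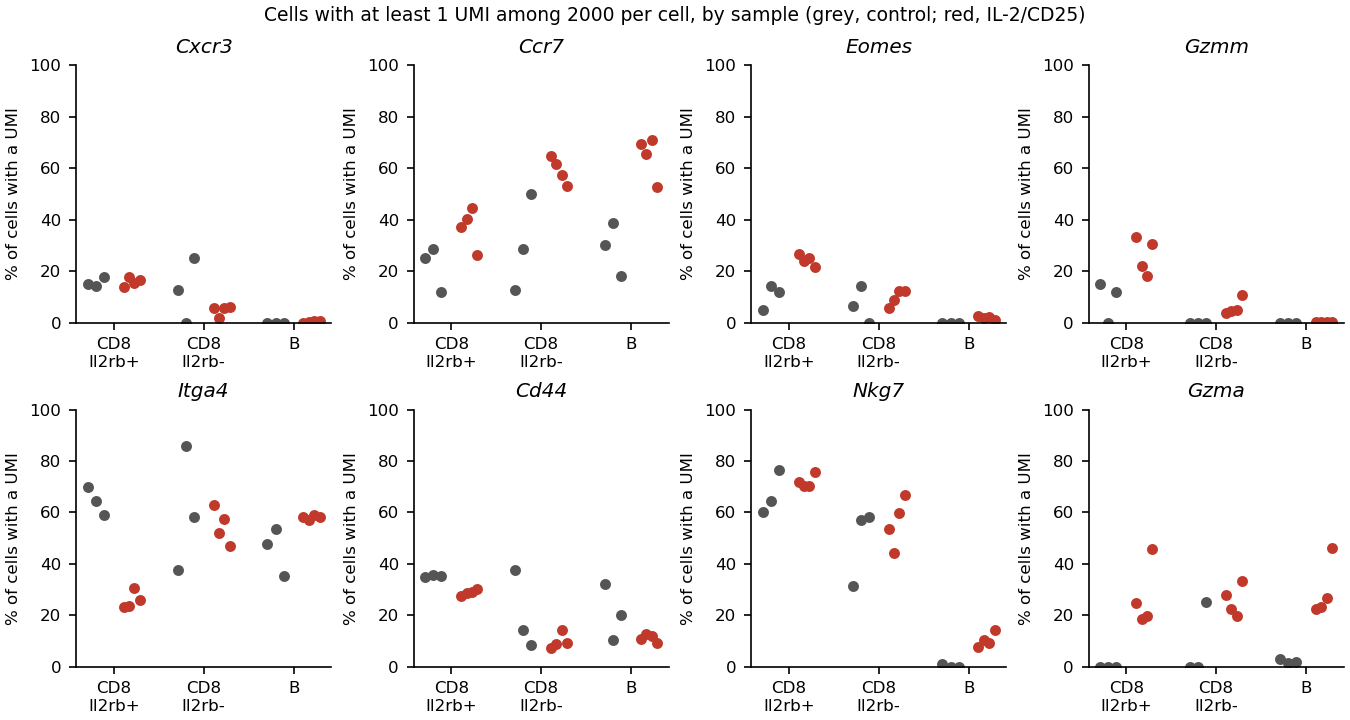
Percent of cells with at least 1 UMI of each gene among 2000 UMIs per cell, in CD8 T cells with Il2rb, CD8 T cells without it and B cells, by sample (grey, control; red, IL-2/CD25). Points are samples. Gzmm is found in 18.2 to 33.2% of treated cells with Il2rb and in at most 10.6% of treated CD8 T cells without it, and Itga4 is found in fewer treated cells with Il2rb (23.1 to 30.6%) than control cells with Il2rb (58.8 to 70.0%).

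The cells also varied among themselves. Those with exactly 1 Il2rb UMI numbered 10, 3 and 5 in the controls and 54, 91, 131 and 76 in the treated samples, and those with at least 2 numbered 16, 14 and 15 and 349, 265, 331 and 472. Just outside the rule were CD8 T cells with a single UMI of Pdcd1, Gzmk or Gzmb, 18, 4 and 13 in the controls and 61, 43, 54 and 90 in the treated samples. Eomes or Tbx21 was found in 34.7, 32.4, 33.3 and 33.9% of treated cells at 2000 UMIs. Any Ly49 receptor gene was found in 14.4, 16.1, 14.4 and 18.7% of treated cells, and Klre1 in 28.1 to 43.9% of these against 7.45 to 13.6% of the rest and 1.84 to 5.88% of B cells. A Trbv gene, of the variable part of the T cell receptor beta chain, was seen in 8.23 to 16.1% of treated cells at full depth. It was 1 of 15 to 18 Trbv genes per sample, and the most frequent made up 10.5 to 23.1% of those cells.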

How the data were processed

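Per the labels' protocols, 7 droplet 3′ libraries were made with the 10x Chromium kit v3.1, and per the submitters' processing notes Cell Ranger 7.0.0 and bcl2fastq 5.0.1 were used. Which build and gene annotation they used is not stated by these sources. The authors deposited UMI counts per gene and barcode (55357 features). The cells and gene lists (11) were chosen with earlier results of these data known. B cells were barcodes with at least 3 UMIs of Cd79a, Cd79b and Ms4a1. Counts were summed per sample and kind of cell, needing 10 cells, and fitted with edgeR 4.0.16 in R 4.3.3 (TMM scaling, filterByExpr, quasi-likelihood F test, Benjamini-Hochberg adjustment over all genes tested, threshold 0.05). Cells with and without Il2rb were compared with the sample as a block. Shares used an exact two-sided permutation test over samples (Python 3.11.15), adjusted over 3 shares. Of these, the share with Il2rb among CD8 T cells without Pdcd1, Gzmk and Gzmb is given as a description only. The smallest summed library of cells with Il2rb had 235828 UMIs. Each fit was also run on simulated data with known changes. Genes were named by rule, at most 12 per fit and direction by size of log2 difference among those past the threshold, with at least 50 CPM in the higher group and the same direction in all sample pairs but at most 1 (with against without Il2rb) or no overlap (between groups), and 6 by p for the difference of differences, with list members as examples. Trimmed and equal-depth sums, the Cd8a requirement and the subtraction of free RNA were chosen after seeing the data. Doublets were called by likeness to sums of random pairs of cells (5.81 to 8.51% of barcodes), including 4, 0 and 4 control and 26, 19, 38 and 28 treated cells with Il2rb, and were kept. DESeq2 1.42.0, other filters and each sample left out were tried as alternatives.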

Additional observations from a re-analysis of the deposited data

Results flagged for a closer look

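In sets of 4 treated samples, 11 of 153 had 1 sample far from the other 3 by Dixon's test of the gap to the nearest, where chance gives about 1 in 20. Among cells with Il2rb in full sums, Bco1 (0.411 CPM), Cda (0.823 CPM) and Ptges (0.411 CPM) were seen in treated sample 1 only. Cenpf (6.90 CPM) and Ube2c (4.60 CPM) stood out in treated sample 3, against at most 0.722 and 0.524 CPM in the other treated samples. Prf1 had 108 CPM in treated sample 4, against 92.1 to 93.4 CPM. Among cells without Il2rb, treated sample 4 had more Eomes (82.6 CPM, against 53.1 to 56.5) and Klrc1 (26.6 CPM, against 14.7 to 16.6), treated sample 1 had less Ikzf2 (23.3 CPM, against 54.7 to 56.0) and Itm2a (23.3 CPM, against at least 48.0), and treated sample 3 had more Serpinb9 (44.0 CPM, against 23.3 to 24.0).

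The difference between cells with and without Il2rb itself differed between treated and control samples for 194 genes in full sums by edgeR's interaction test. Lat (log2 -3.40), Trbc2 (-2.59), Slamf6 (-3.15), Tcf7 (-2.22), Themis (-3.16) and Lck (-2.47) led them, and trimmed or equal-depth sums called none of these 6. Itga4 (log2 -3.60) was called in all 3 kinds of sums. Barcodes over 20000 UMIs held at least 61.4% of the control UMIs in these full sums.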

How the results depend on the processing

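The share of cells with Il2rb among kept barcodes differed by 4.58 points, by 4.34 to 4.84 without any 1 sample and by 4.43 with a replicate block. Among CD8 T cells it differed by 47.9 points, by 44.3 to 54.8 without any 1 sample and by 46.9 with the block. Such fits cannot go below an exact p of 0.0667 without a control, 0.1 without a treated sample or 0.25 with the block. Il2rb among CD8 T cells without Pdcd1, Gzmk and Gzmb differed by 35.9 points, by 30.3 to 43.2 without 1 sample, 33.6 with the block, 13.7 with Cd8a, 15.2 at equal depth and 4.02 after re-gating at 2000 UMIs. In full sums, deviations of same-numbered samples from their group means had correlations of -0.0017, -0.0243 and 0.0344. Large barcodes held most control UMIs there, so these values cannot decide whether same-numbered samples were paired.

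Genes that differed with Il2rb numbered 82. They numbered 175 with Cd8a required, 186 by DESeq2, 884 in the IL-2/CD25 samples alone, 473 without barcodes over 20000 UMIs, 221 trimmed, 44 without Siglech barcodes, 132 without doublets, 140 re-gated at 2000 UMIs, 4 with free RNA subtracted, 178 at equal depth, 41 without NK genes and 669 with no filter on low counts. Without the sample block edgeR called 0 (263 at an unadjusted p under 0.05, and 186 by DESeq2 with the block). Leaving out 1 sample gave 15 to 258, and 84 to 409 trimmed.

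Genes that differed between groups numbered 6007. They numbered 1984 with Cd8a, 1451 with at least 2 Il2rb UMIs, 1010 without barcodes over 20000 UMIs, 1002 trimmed, 452 both re-gated and at equal depth, 3675 without NK genes, 1277 with 17 cells per sample, 2561 with sums thinned to 1 depth, 4649 with the replicate block, 4513 to 6384 without any 1 sample and 484 to 1078 so when trimmed. For the difference of differences 194 genes became 422 with Cd8a, 2703 with at least 2 Il2rb UMIs, 68 with 20 cells required, 2 without barcodes over 20000 UMIs, 3 trimmed, 395 without Siglech barcodes, 1 re-gated, 358 with free RNA subtracted, 4 at equal depth, 22 without NK genes, 445 with no filter, 55 to 738 without any 1 sample and 2 to 145 so when trimmed. The cause was not tested, beyond fewer cells or genes where a setting leaves them out.

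Over 118 named gene results, 2740 of 3350 alternative values kept direction and side of the threshold, and 66 turned the direction. With against without Il2rb, Lef1 had log2 0.21 in full sums and -0.53 in the IL-2/CD25 samples alone, -0.47 without large barcodes, -0.72 trimmed (-0.78 to -0.64 without 1 sample), -0.38 re-gated and -0.78 at equal depth. Cd44 turned to 0.99 trimmed (0.91 to 1.25), 0.46 re-gated and 1.21 at equal depth, Tcf7 to -0.29 re-gated, -0.36 at equal depth and -0.39 trimmed without control 1, and Il7r to -0.23 at equal depth and -0.27 trimmed without control 1. Clic4 turned to 0.10 trimmed (0.03 to 0.29) and 0.14 re-gated, and Rpgrip1 to 0.044 re-gated and 0.063 at equal depth. Between groups, Itga4 turned to -1.22 with Cd8a, -1.38 with 2 Il2rb UMIs, -1.30 without large barcodes, -1.39 trimmed (-1.53 to -1.33), -1.70 re-gated and -1.35 at equal depth. Cxcr3 turned to -0.13 with Cd8a, -0.30 with 2 Il2rb UMIs, -0.36 both without large barcodes and trimmed (-0.51 to -0.23). Re-gated values were -0.48 for Gzma, -0.38 for Ccl5 and -0.46 for Nkg7, and Ccl5 trimmed reached -0.013 without treated sample 4. For the difference of differences, trimmed sums without control 1 gave Trbc2 0.44, Tcf7 0.37 (0.061 re-gated), Themis 0.11 and Lck 0.49. In full sums the values farthest from those, over fits that left out 1 sample, were 0.45 for Lef1, -0.14 for Cd44, 1.08 for Il7r and -1.04 for Clic4 with against without Il2rb. They were 0.61 for Itga4, 1.92 for Ccl5 and 1.58 for Cxcr3 between groups, and -2.73 for Trbc2, -2.32 for Tcf7, -3.26 for Themis and -2.66 for Lck for the difference of differences.

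The 63 control cells limit every comparison between groups, and 10 control UMIs of Gzmm, 14 of Klrc2 and 22 of Eomes after trimming show how few molecules carry some of them.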
